A study of Drosophila melanogaster with 2 samples.

Results

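H3T3ph, histone H3 phosphorylated at threonine 3, was mapped by ChIP-seq in *Drosophila* S2 cells, and the regions described here are those that lie on the right arm of chromosome 3 (3R). They are all rows of the authors' list of enriched regions whose sequence name is 3R in the dm3 genome build, so that the heterochromatic scaffold 3RHet is not among them. There are 356 such regions among the 6387 of the list (5.57%), and no measured value was used to choose them. They lie between positions 57110 and 27697633, counted from 1. On 3R positions are counted from the centromeric end, while on the left arms of chromosomes 2 and 3 (2L and 3L), used here for comparison, that end has the highest positions. Distances from the centromeric end run from position 1 on 3R and from the end of the last region on 2L and 3L. They are distances within the listed arms and need not be equal distances from the centromere.

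The study immunoprecipitated (IP) chromatin with an H3T3ph antibody and compared the IP DNA with input DNA, both from S2 cells for which the labels name no treatment. S2 is a long established culture line of embryonic origin. There was 1 library of each kind, so none of the values below has a replicate check, and intervals cover counting error only. Amplified reads that carry no molecular identifier cannot be counted as separate molecules, so the true error is larger.

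H3T3ph is written by haspin kinase. The mark is best known from mitosis, when it gathers at centromeres and recruits the chromosomal passenger complex, which holds Aurora B kinase. In a bulk culture a site that is marked in few mitotic cells and a site that is weakly marked in many cells cannot be told apart. Chromosome arms are largely euchromatic, with heterochromatin near the centromere. In dm3 much of that heterochromatin is kept in separate scaffolds. The arm 3R is also known for carrying both homeotic gene complexes of the fly, the Antennapedia and the bithorax complex. Genes are not placed on the regions here, since the only gene table at hand was of another build, Release 6. No dm3 genome was at hand, so no sequence is shown.

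For each region the list gives its width and the reads of the IP and of the input library. The libraries hold 21013056 IP reads and 23747069 input reads. The IP to input ratio is the IP reads over the input reads, each scaled to its library. Pooled ratios use the summed reads and have 95% exact (Clopper-Pearson) intervals. The 356 regions covered 357.1 kb, or 1.29% of the arm, and held 94458 IP reads and 80048 input reads. These are 0.450% of the IP library and 0.337% of the input library. Their pooled ratio was 1.33 (interval 1.32 to 1.35), against 1.47 on 3L (interval 1.46 to 1.48) and 1.35 on 2L (interval 1.34 to 1.36). With 12.9 regions per Mb, 3R was the sparser arm, against 33.5 on 3L and 29.4 on 2L, where the length of an arm is the end of its last region.

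The centromeric end of 3R had few enriched regions. The first 1 Mb held 19 regions and the second held 15, so that the proximal 2 Mb had 17.0 regions per Mb. The proximal 2 Mb of 3L had 238.5 regions per Mb, and the density on 3R was 0.0713 times as high (interval 0.0488 to 0.101). Against 175.0 regions per Mb in the proximal 2 Mb of 2L, the density ratio was 0.0971 (interval 0.0662 to 0.138). Both values depend on the borders and on the list. With a proximal part of 3 or 4 Mb, which takes in the dense bin of 3R described further on, they were 0.201 and 0.227 against 3L and 0.281 and 0.323 against 2L. With regions no more than 500 bp apart joined they were 0.118 against 3L and 0.195 against 2L, and with only the regions whose p-value lay at or below the median of the list they were 0.0280 and 0.0316. The density stayed lower on 3R in each of these cases. The intervals treat regions as independent, which neighbors are not. Enriched regions covered 2.08% of the proximal 2 Mb of 3R, against 26.8% on 3L and 30.2% on 2L. The scaffold 3RHet, which belongs to the same arm, held 888 regions over 2.50 Mb, or 355.6 regions per Mb. The proximal 2 Mb of 3R reached 0.0478 times that density (interval 0.0329 to 0.0673). Reads with more than 1 placement in the genome were discarded by the authors, so that repeats with identical copies are not measured in any of these places.

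**Figure D1:**
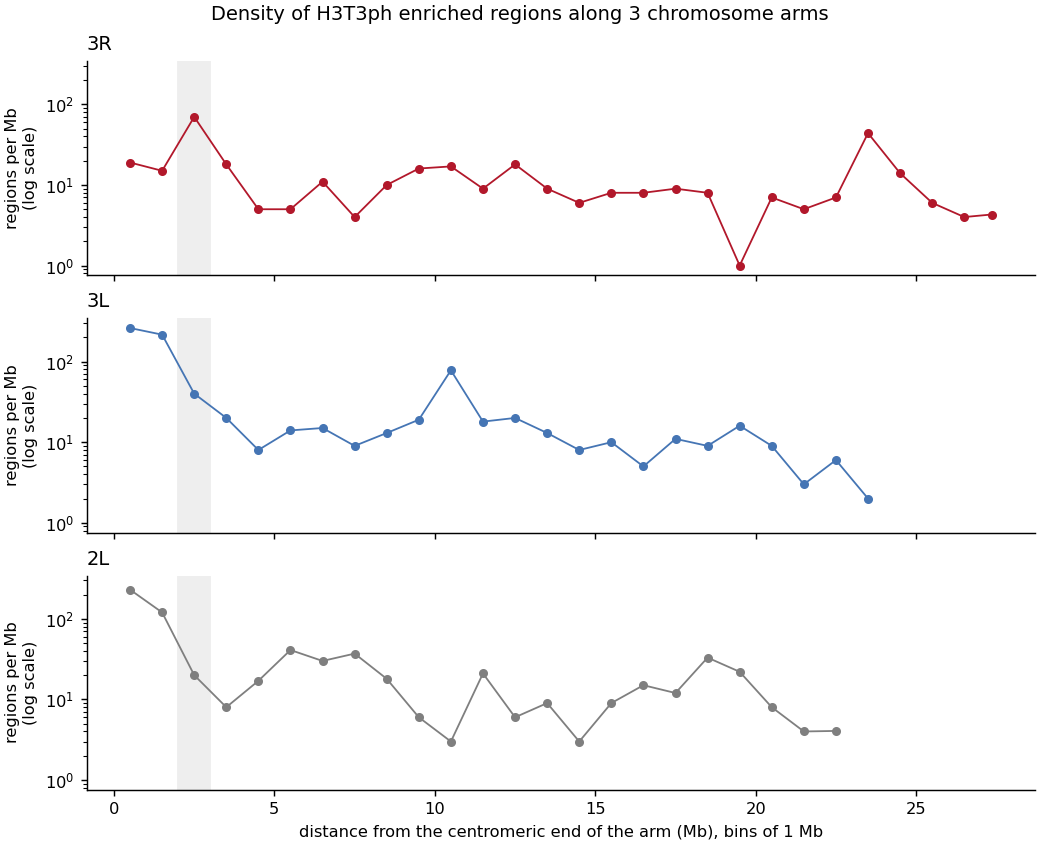
Number of H3T3ph enriched regions per Mb (log scale) in bins of 1 Mb, against the distance from the centromeric end, for 3R, 3L and 2L. Each point is a bin, the last bin of an arm is shorter and scaled to its length, and the last bin of 3L, which holds no region, is not drawn. The grey band marks 2 to 3 Mb, where 3R has its highest value of 70 regions, while 3L and 2L have their highest values in the first bin.

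The first region of the arm, from 57110 to 57125, was 16 bp wide with 11 IP reads and 1 input read. Most of the covered sequence of the first 1 Mb lay in a few wide regions. A group of 4 regions between 403186 and 422950 had widths of 2256, 4302, 4471 and 3314 bp, and 2 of them, from 408768 to 413069 and from 413078 to 417548, almost touch. Their ratios lay between 1.16 and 1.26. This group was singled out after its values had been seen. Nearer to 2 Mb, 5 regions of 675 to 1538 bp stretched from 1781638 to 1808631, with gaps of 4684 to 6697 bp. Their pooled ratio was 1.37 (interval 1.26 to 1.49), and none of the 5 reached a ratio of 2.

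The proximal part of 3R differed from that of 3L and 2L also in the ratio of its wide regions. A wide region can pass the authors' threshold with a smaller ratio than a narrow one, so ratios were compared within classes of width. In regions wider than 1600 bp the ratio was 1.21 in the proximal 2 Mb of 3R (9 regions, interval 1.17 to 1.25). It was 1.43 in that of 3L (104 regions, interval 1.41 to 1.44) and 1.33 in that of 2L (147 regions, interval 1.32 to 1.34). The quotient of 3R over 3L was 0.844 (exact conditional interval 0.816 to 0.873), and that of 3R over 2L was 0.906 (interval 0.877 to 0.937). Between 800 and 1600 bp of width the quotient was 0.892 against 3L (interval 0.839 to 0.947) and 0.954 against 2L (interval 0.898 to 1.01). In each of the 4 narrower classes the interval included 1 against both arms. The class of over 400 to 800 bp, with 7 regions of 3R, had quotients of 0.963 against 3L (interval 0.878 to 1.06) and 1.04 against 2L (interval 0.942 to 1.14). Both intervals leave out the quotients of the widest class. The 3 narrowest classes held only 2 to 4 regions of 3R each, and their intervals include the quotients of the widest class, except against 2L at 200 to 400 bp (1.21, interval 0.914 to 1.6). The input itself also differed between the arms. In regions of at least 400 bp the median input was 8.73 RPKM (reads scaled to the width of the region and to the size of the library) in the proximal 2 Mb of 3R, 9.21 RPKM in that of 3L and 13.7 RPKM in that of 2L, and its part in the ratios was not tested. The median IP values were 12.1, 14.2 and 19.8 RPKM in the same order of arms.

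Against 3R beyond 4 Mb, no difference in ratio was detectable within classes of width. In regions wider than 1600 bp the ratios were 1.21 and 1.24, with a quotient of 0.976 (interval 0.941 to 1.01), and in the other 5 classes the interval of the quotient included 1 as well. Pooled over all widths the quotient was 0.952 (interval 0.925 to 0.981), but the proximal regions were wider, with a median of 886.5 bp against 413 bp beyond 4 Mb. The density of the proximal part was 1.72 times that of the arm beyond 4 Mb (interval 1.16 to 2.47).

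The bin from 2 to 3 Mb was the densest of the arm. It held 70 regions, that is 19.7% of the regions of 3R and 26.5% of their covered sequence in 3.61% of the length of the arm. This was 6.53 times the density of the rest of 3R (interval 4.96 to 8.51), 4.12 times that of the proximal 2 Mb (interval 2.70 to 6.40) and 3.89 times that of the bin from 3 to 4 Mb (interval 2.29 to 6.94). Among regions with a p-value at or below the median of the list the first of these was 11.4. The bin had been named with its density known, so these ratios describe it. At the same distance from the centromeric end of the listed arm, 3L had 40 regions and 2L had 20. The quotients of 3R over these bins were 1.75 (interval 1.17 to 2.65) and 3.50 (interval 2.10 to 6.08). The covered share was 9.46% on 3R, against 3.07% on 3L and 0.488% on 2L. The bin on 3R thus stood out by covered sequence more than by number.

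Regions of this bin were wide. Their median width was 1055 bp with quartiles of 557.25 and 1975 bp, and 22 of the 70 were wider than 1600 bp. Only 6 were at most 50 bp wide, against 46 of 234 beyond 4 Mb. Its 23907 IP and 20306 input reads gave a pooled ratio of 1.33 (interval 1.31 to 1.36), and the 51959 IP and 43453 input reads beyond 4 Mb gave 1.35 (interval 1.33 to 1.37). In none of the 6 classes of width did the interval of the quotient exclude 1. For regions wider than 1600 bp, for example, the ratios were 1.26 and 1.24, with a quotient of 1.02 (interval 0.988 to 1.05). Against the bin at the same distance on 3L, the quotient over all widths was 0.899 (interval 0.864 to 0.935), but in each class of width that could be compared the interval included 1, as in regions wider than 1600 bp (0.949, interval 0.887 to 1.01). Against the proximal 2 Mb of 3L the ratio of this bin was lower in wide regions. The quotient was 0.880 in regions wider than 1600 bp (interval 0.858 to 0.902) and 0.923 between 800 and 1600 bp (interval 0.888 to 0.960). The bin thus differed from 3R beyond 4 Mb in the number and width of its regions, while a difference in ratio at like width was not detectable. Its neighbors on 3R had wide regions too, with median widths of 886.5 bp in the proximal 2 Mb and 1120 bp from 3 to 4 Mb.

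Most of the bin was made by 1 cluster. A cluster is here a run of at least 10 regions whose neighbors are no more than 25 kb apart. The cluster from 2287431 to 2496930 had 41 regions with a median width of 1051 bp and a median gap of 2187.5 bp. It held 11.5% of the regions of 3R in 0.756% of its length. The widest region, from 2341072 to 2345424, had 1053 IP and 935 input reads, a ratio of 1.27 (interval 1.16 to 1.39). The region from 2428900 to 2429678 had the highest ratio among regions of 3R of at least 400 bp in this bin, 1.82, with 200 IP and 124 input reads (interval 1.45 to 2.30). It follows within 2 bp a region of 2681 bp that ends at 2428897 and has a ratio of 1.405. Cut into 5 equal stretches of 41.9 kb, the cluster was covered to between 28.2 and 37.9% in the first 4 and to 6.29% in the last. Their pooled ratios lay between 1.32 and 1.49 with overlapping intervals.

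The other 29 regions of the bin lay mostly in small groups. Runs of 5 to 7 regions under the same gap of 25 kb stretched from 2570167 to 2616699, from 2691684 to 2722275 and from 2817265 to 2896324, with 6, 5 and 7 regions. Their pooled ratios were 1.31, 1.39 and 1.37, and regions covered 13.1, 20.03 and 9.34% of their lengths. With a gap of 50 kb the cluster and the first 2 of these groups joined into 1 run of 57 regions that ends at 2757891. Another group of 5 regions, from 3185919 to 3238438 in the next bin, included the second widest region of the arm. That region, from 3192464 to 3197841, had 1355 IP and 1241 input reads, a ratio of 1.23 (interval 1.14 to 1.33). The widest of all, from 3763065 to 3769138, lay in the same bin, with 1592 IP and 1562 input reads and a ratio of 1.15 (interval 1.07 to 1.24).

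**Figure D2:**
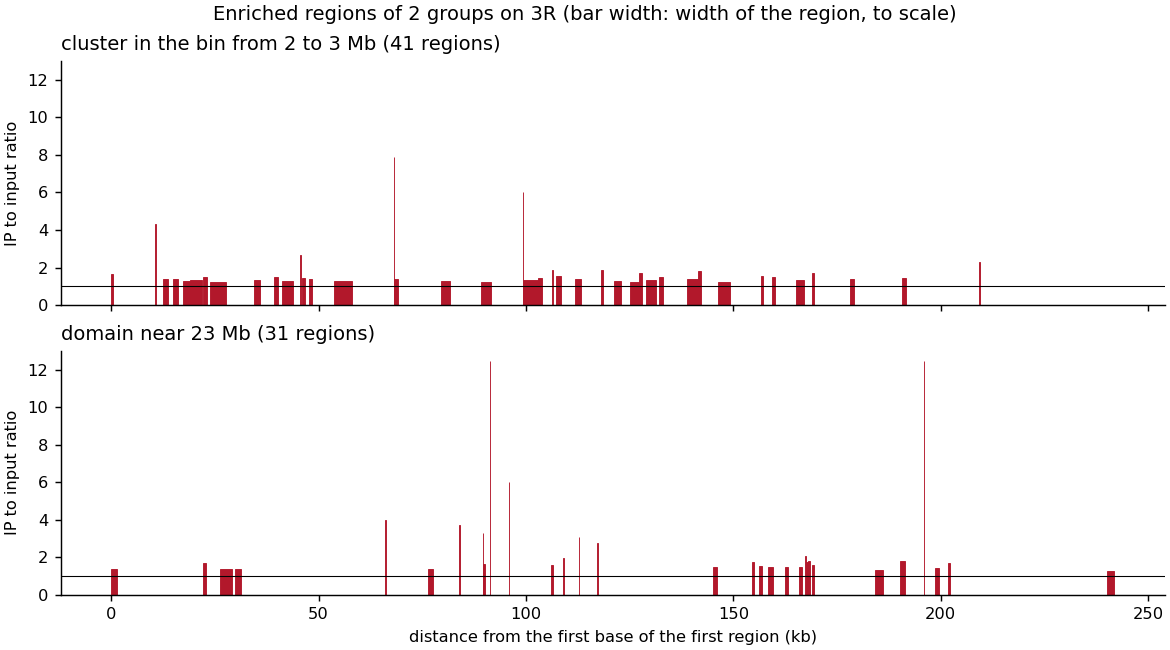
Enriched regions of the cluster in the bin from 2 to 3 Mb (above) and of the domain near 23 Mb (below), against the distance in kb from the first base of the group. Each bar is a region, drawn to its width, and its height is its IP to input ratio, and the line marks a ratio of 1. Wide bars are low in both groups, the widest having ratios of 1.27 in the cluster and 1.38 in the domain, and the tall thin bars are narrow regions of few reads.

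Along the body of the arm the regions were sparse. From 4 to 23 Mb there were 163 regions, or 8.58 per Mb. Of the 23 full bins beyond 4 Mb, 16 had fewer than 10 regions, against 9 of 20 on 3L and 8 of 18 on 2L. The lowest bin, from 19 to 20 Mb, held a single region of 478 bp with 143 IP and 103 input reads. The longest stretch of 3R without a region, 1048.66 kb from 19033929 to 20082593, follows it. The next longest stretches, of 829.6 kb from 24904706 and of 791.8 kb from 25937424, lie toward the telomere. Between 4 and 23 Mb only 1 run reached 5 regions, from 12970248 to 13013433, with a pooled ratio of 1.33 (interval 1.23 to 1.42).

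Beyond 4 Mb as a whole, 3R had 9.87 regions per Mb, against 13.9 on 3L and 15.7 on 2L. The density ratio was 0.709 against 3L (interval 0.594 to 0.846) and 0.629 against 2L (interval 0.528 to 0.749). Regions covered 0.816% of this sequence on 3R, 0.887% on 3L and 1.64% on 2L, so that 3R and 3L lay closer by covered sequence than by number. At a fixed gap, the share of regions without a near neighbor was larger on 3R than on 2L. Such shares depend on the density, and a difference in spacing apart from density was not tested. With no neighbor within 25 kb stood 103 of 234 regions of 3R (44.0%, exact interval 37.6 to 50.6), 111 of 286 of 3L (38.8%, interval 33.1 to 44.7) and 90 of 298 of 2L (30.2%, interval 25.04 to 35.8). The intervals of 3R and 3L overlap. Clusters beyond 4 Mb held 26 regions of 3R (11.1%, interval 7.39 to 15.9), against 67 of 3L (23.4%, interval 18.6 to 28.8) and 49 of 2L (16.4%, interval 12.4 to 21.1), and the intervals of 3R and 2L overlap. These were only 2 clusters on 3R, 1 on 3L and 3 on 2L. The intervals treat regions as independent, which members of a cluster are not, so they do not measure a difference between arms. Over whole arms, with the centromeric ends included, clusters held 18.8% of the regions of 3R, 68.7% of those of 3L and 57.7% of those of 2L.

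In the ratio, differences between the arms beyond 4 Mb were small, and mostly within the intervals at like width. Pooled over all widths it was 1.35 on 3R, 1.403 on 3L and 1.30 on 2L, with quotients of 0.963 for 3R over 3L (interval 0.946 to 0.981) and 1.04 for 3R over 2L (interval 1.02 to 1.06). Of the 12 comparisons by width class, the interval excluded 1 in a single case. Regions wider than 1600 bp had a ratio of 1.24 on 3R and 1.20 on 3L, a quotient of 1.03 whose lower limit, 1.0015, is close to 1. The lower ratio of wide proximal regions on 3R relative to 3L and 2L therefore had no counterpart of the same direction in this class farther out.

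**Figure D3:**
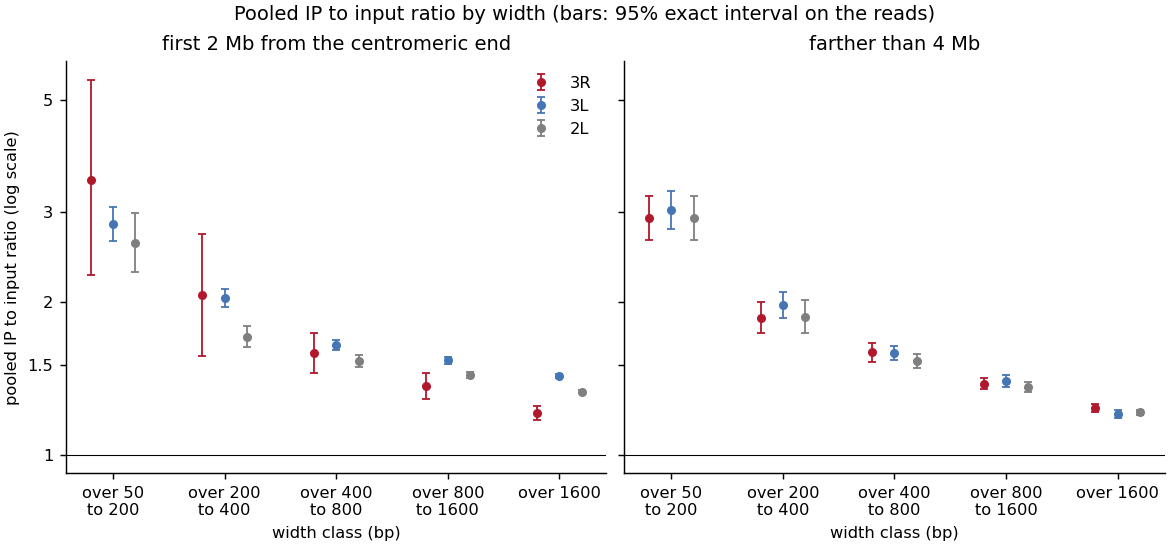
Pooled IP to input ratio (log scale) of 3R, 3L and 2L in classes of region width, in the first 2 Mb from the centromeric end (left) and farther than 4 Mb (right). Points are pooled ratios and bars 95% exact intervals on the reads, and the class of at most 50 bp is not drawn. In the class over 1600 bp 3R stands at 1.21 on the left, under 1.43 for 3L and 1.33 for 2L, while on the right the 3 arms lie between 1.20 and 1.24.

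Near 23 Mb lay the second dense place of the arm, which lies within a stretch of 3R that the study drew as an example, going by the axis of that drawing. In the list it was found as the run of regions, no more than 50 kb apart, with the most regions in the bin from 23 to 24 Mb. It stretched from 23129315 to 23371182 and held 31 regions, which are 8.71% of the regions of 3R in 0.873% of its length. Because the study chose that stretch from these data, the density and the IP to input ratio of the domain are descriptions. Another drawn stretch of chromosome 3, which holds the Antennapedia complex, was not placed here. The sequence before the domain had no region for 520.8 kb, and the next region followed after 79.0 kb. Regions covered 9.005% of the domain, against 27.1% of the cluster in the bin from 2 to 3 Mb, and their median width was 576 bp, against 1051 bp.

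The regions of the domain were unevenly placed. Of 5 equal stretches of 48.4 kb, the fourth held 12 regions and was covered to 19.1%, and the third held 4 and was covered to 2.19%. The domain had 2 parts that met the definition of a cluster. The first, from 23195394 to 23246669, was made mostly of narrow regions, with a median width of 101 bp for 11 regions, and 5.84% of it was covered. Its widest region, from 23205767 to 23206798, had 241 IP and 197 input reads (ratio of 1.38, interval 1.14 to 1.68). The other, from 23274396 to 23331438, held 15 regions with a median width of 706 bp, and 18.6% of it was covered. Its widest region, from 23313569 to 23315447, had 390 IP and 337 input reads (ratio of 1.31, interval 1.13 to 1.52). Pooled ratios of the 2 parts were 1.74 (interval 1.55 to 1.95) and 1.53 (interval 1.44 to 1.62), the narrower regions having the higher ratio.

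Of the 31 regions of the domain, 9 had a ratio of at least 2, and these were narrow. Such a ratio was reached by 40.6% of the regions of 3R beyond 4 Mb and by 47.5% of the whole list. The wide regions had low ratios. The first, from 23129315 to 23130671, had 297 IP and 248 input reads. The widest, from 23155492 to 23158330, had 623 IP and 512 input reads (ratio of 1.38, interval 1.22 to 1.55). The last, from 23369305 to 23371182, had 446 IP and 404 input reads and the lowest ratio of the domain, 1.25 (interval 1.09 to 1.43). The region from 23319589 to 23320648 had the highest ratio among those of the domain of at least 400 bp. It had 262 IP and 166 input reads, a ratio of 1.78 (interval 1.46 to 2.18), and was the third highest on 3R among regions of at least 400 bp. In the 19 regions of the domain of at least 400 bp the ratio ran between 1.25 and 1.78 with a median of 1.47.

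The pooled ratio of the domain, 1.48 (5059 IP and 3851 input reads, interval 1.42 to 1.55), was above the 1.34 of the other 203 regions of 3R beyond 4 Mb, with a quotient of 1.11 (interval 1.06 to 1.16). Since the domain was chosen from these same data, this quotient and those by width class only describe it. In none of the 6 classes of width did the interval of the quotient exclude 1. In regions wider than 1600 bp, of which the domain had 3, the ratios were 1.32 and 1.23 (quotient of 1.07, interval 0.988 to 1.15). Between 800 and 1600 bp they were 1.44 and 1.37 (quotient of 1.05, interval 0.977 to 1.14). Median RPKM values in its regions of at least 400 bp were 11.1 for the IP and 7.55 for the input, against 11.9 and 8.45 over all such regions beyond 4 Mb, those of the domain included.

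A second run under the gap of 50 kb followed, with 10 regions from 23597999 to 23731237. It had a pooled ratio of 1.49 (interval 1.39 to 1.61) and was covered to 5.22%. Its widest region, from 23670477 to 23672846, had 584 IP and 471 input reads (ratio of 1.401, interval 1.24 to 1.59). Another of its regions, from 23696214 to 23696632, had 96 IP and 61 input reads and a ratio of 1.78 (interval 1.28 to 2.49). The bin from 23 to 24 Mb had 44 regions in all. Together with the bin from 2 to 3 Mb it held 114 regions, or 32.0% of those of 3R, in 7.22% of its length.

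Toward the telomere the regions became narrow, while their density, 7.30 per Mb beyond 24 Mb, was not far below the 8.58 per Mb from 4 to 23 Mb. Beyond 24 Mb there were 27 regions with a median width of 85 bp, none wider than 1600 bp, which covered 0.189% of the sequence. In the last 4 Mb 3R had 30 regions, against 15 on 3L and 39 on 2L, with density ratios of 2.0 (interval 1.04 to 4.00) and 0.769 (interval 0.461 to 1.27). By covered share the order of 3R and 3L was the other way round, 0.215% on 3R and 0.428% on 3L, with 0.148% on 2L. Median widths in the last 4 Mb were 118 bp on 3R, 652 bp on 3L and 48 bp on 2L. The last region of the arm, from 27697100 to 27697633, had 117 IP and 83 input reads (ratio of 1.59, interval 1.19 to 2.14).

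**Figure D4:**
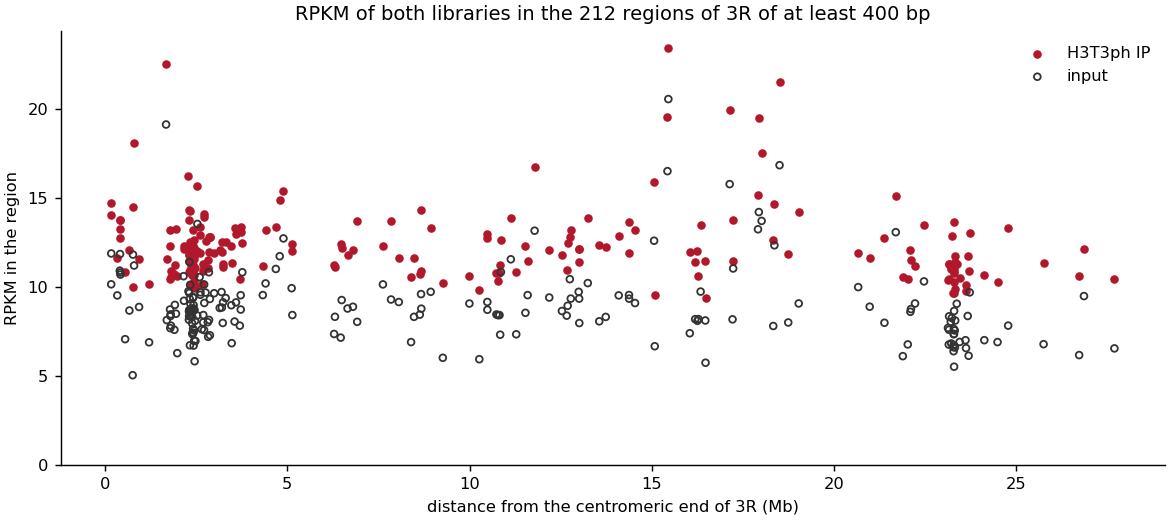
RPKM of the H3T3ph IP (filled) and the input (open) in each of the 212 regions of 3R of at least 400 bp, against the distance from the centromeric end. The medians are 11.9 RPKM for the IP and 8.65 RPKM for the input, and a few regions with high IP values, such as that at 23.5 RPKM, also have a high input, here 20.6 RPKM.

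Over the whole arm the ratio of a region followed its width. Width and ratio had a Spearman correlation of -0.97 over the 327 regions with input reads, given as a description across regions that share their libraries and the threshold that listed them. A narrow region with few reads is listed only if its ratio is high. The 13 regions wider than 4000 bp had ratios of at most 1.27. Examples are the regions from 10859441 to 10864160 (1256 IP and 1215 input reads, ratio of 1.17), from 2150684 to 2155308 (1179 IP and 1165 input reads, ratio of 1.14) and from 17914208 to 17918788 (1460 IP and 1441 input reads, ratio of 1.15). At the other end, 29 regions of at most 9 bp had no input read and 10 to 12 IP reads. For the 24 of them with 10 IP reads, the IP was at least 3.77-fold higher when set against a floor of 3 input reads, which leaves out the counting error of the IP reads. With that error included, the exact lower limit of their ratio was 2.53. The highest such limit on 3R, 3.14, belonged to such a region of 7 bp, from 5125965 to 5125971, with 12 IP reads. The 4 that follow, from 10459271 to 10459272, from 11606961 to 11606964, from 12508679 to 12508687 and from 24573444 to 24573450, had 11 IP reads and no input read each.

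**Figure D5:**
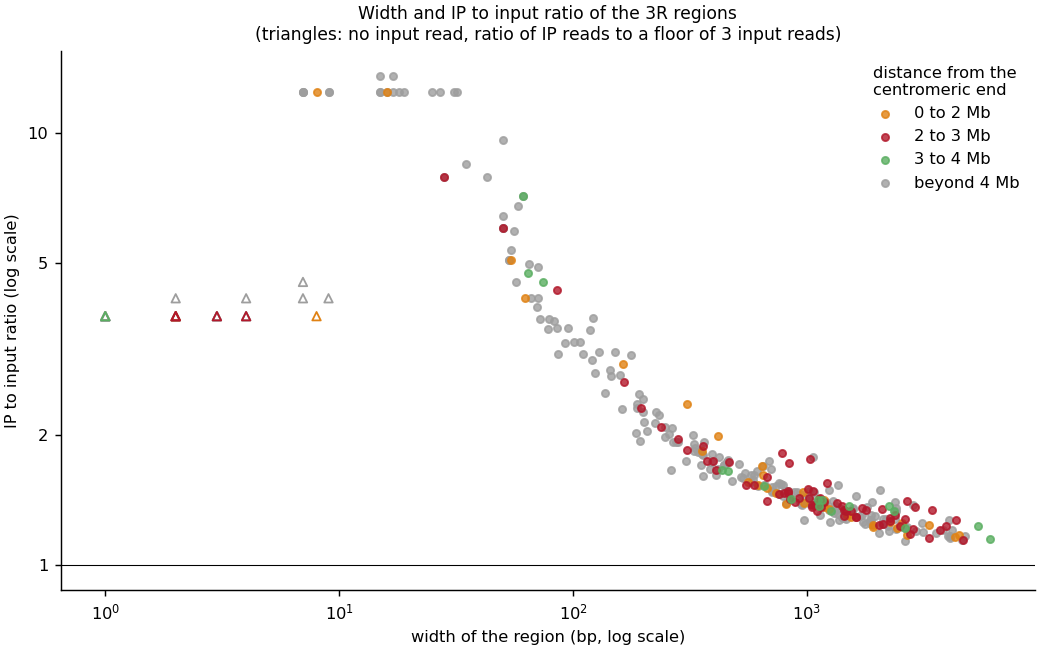
IP to input ratio against width of the 356 regions of 3R, both on log scales, colored by distance from the centromeric end. Open triangles are the 29 regions with no input read, drawn with their IP reads set against a floor of 3 input reads, and all others fall along 1 band from ratios above 10 in the narrowest regions to 1.15 in the widest of 6074 bp.

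A ratio of at least 2 was reached by 117 of the 356 regions (32.9%, exact interval 28.0 to 38.0), against 47.5% of the whole list, 31.6% on 3L (interval 28.4 to 34.9) and 22.9% on 2L (interval 19.8 to 26.3). Over whole arms, regions of at most 200 bp made up 30.3% on 3R, 22.6% on 3L and 20.4% on 2L. In the whole list they were 2129 of 6387. Of these 117, 107 were at most 200 bp wide, and the widest had 308 bp. None of the 212 regions of 3R of at least 400 bp reached a ratio of 2, which allows a share of up to 1.42% by the limit of 3 counts. Among regions of this width, 14 of 515 did so on 3L, 1 of 478 on 2L and 360 of 3089 in the whole list (11.7%). The highest on 3R was the region from 756586 to 757003, of 418 bp, with 88 IP and 50 input reads and a ratio of 1.99 (interval 1.39 to 2.87). Another of the highest, from 2876030 to 2877058, had 277 IP and 178 input reads and a ratio of 1.76 (interval 1.45 to 2.14). By the authors' p-value, 67 regions of 3R (18.8%) belonged to the better part of the list, that is at or below its median. Over whole arms, with the centromeric ends included, this compares with 43.6% of those of 3L and 46.4% of those of 2L. The arms lay closer beyond 4 Mb, where such regions made up 14.1% on 3R, 19.9% on 3L and 19.5% on 2L. A lower limit of the ratio above 1.5 was found for 27.0% of the regions of 3R, 25.6% of those of 3L and 18.2% of those of 2L. In the whole list it was found for 43.2%. This share also counts the narrow regions, which over whole arms were more common on 3R. Beyond 4 Mb, regions of at most 50 bp made up 19.7% on 3R, 18.9% on 3L and 20.8% on 2L. Those of over 50 to 200 bp made up 17.9% on 3R, 19.9% on 3L and 13.8% on 2L there. In regions of at least 400 bp the median ratio was 1.38 on 3R, 1.52 on 3L and 1.39 on 2L.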

How the data were processed

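H3T3ph IP and input libraries of S2 cells (1 each) were sequenced with reads of 50 nt. The authors aligned them to dm3 with Bowtie 0.12.5, allowing 2 mismatches and 1 placement, removed excess duplicates and called regions with htSeqTools 1.4.0 in R 2.15 (at least 10 reads, adjusted p of 0.05). The deposited list gives read counts per region as whole numbers, the RPKM of both libraries and an adjusted p-value, which was used only to rank regions. It has no header. Columns were read as IP before input, as the first RPKM value is the higher in each of the 6387 regions. Library totals (21013056 IP and 23747069 input reads) were derived from counts and RPKM.

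Densities, pooled ratios and quotients have 95% exact intervals, computed with Python 3.11.15 and scipy 1.17.1 and tested on simulated data. No p-value is given. Named regions are the clusters with their widest region, the 5 widest, the 5 with the highest ratio at 400 bp or more, the 5 with the highest lower limit, the first and last, and the 3 longest gaps; others are examples chosen after their values were seen. The 3R regions and all definitions were chosen with earlier results of these data known. Genes and sequences were not analysed here.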

Additional observations from a re-analysis of the deposited data

How the results depend on the processing

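There was 1 library of each kind, so no replicate could be left out and the spread between cultures is unknown. No paired analysis was possible because there is 1 IP and 1 input library, with no replicate numbers. Of 75 alternative values for 13 results, 55 stayed within 1.5 times the value given and 20 did not, and no direction was reversed. The proximal density of 3R over that of 3L (0.0713) took values between 0.0280 and 0.227, and over that of 2L (0.0971) between 0.0316 and 0.323, the highest with a proximal part of 4 Mb and the lowest among regions with a p at or below the median. That last choice gave 11.4 for the bin from 2 to 3 Mb over the rest of 3R. The density of the proximal 2 Mb over the rest of 3R was 1.36, with an interval that includes 1, but 1.68 with only regions of at least the median width, and 3.40 and 3.09 with a proximal part of 3 and 4 Mb, which take in the dense bin. By covered sequence the bin from 2 to 3 Mb had 9.62 times the value of the rest of 3R in place of 6.53, and 3R beyond 4 Mb had 0.920 times that of 3L in place of 0.709 and 0.498 times that of 2L in place of 0.629. The ratio of 3R beyond 4 Mb was 1.64 as a median of regions, 1.47 in regions of over 200 and up to 1600 bp and 1.30 in those of at least median width. The first 2 settings gave 1.4 and 1.46 for the bin from 2 to 3 Mb, and the median was 1.67 for the domain. The 3 clusters became 9 with a minimum of 5 regions and 1 with a minimum of 20 or with regions of p at or below the median. The share of regions in clusters, 18.8%, was 12.9% with a gap of 10 kb, 27.5% with 50 kb, 28.1% with at least 5 regions and 11.5% with at least 20. The domain had 12.8 regions per 100 kb, but 26.3 with a gap of 25 kb, 7.86 counting regions of at least median width and 1.24 with regions of p at or below the median. The share of regions with a ratio of at least 2, 32.9%, was 26.9% without regions that lack input reads, 5.88% at widths over 200 and up to 1600 bp and 10.4% with that choice by p. Apart from the longer proximal part, the cause of these changes was not tested.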

Other observations

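The regions of 3R with the highest input lay apart from both dense bins. The region from 15454737 to 15457354, of 2618 bp, had 1291 IP and 1279 input reads, with 23.5 RPKM in the IP and 20.6 RPKM in the input, and a ratio of 1.14. The region from 1671976 to 1674661, of 2686 bp, had 1271 IP and 1221 input reads, with an input of 19.1 RPKM and a ratio of 1.18. The median input over the 212 regions of 3R of at least 400 bp was 8.65 RPKM. Over whole arms, closely spaced regions were fewer on 3R than on 3L and 2L. Joining regions no more than 500 bp apart left 329 of 356 regions on 3R, against 575 of 823 on 3L and 462 of 676 on 2L. Beyond 4 Mb the arms lay closer, with 222 of 234 left on 3R, 263 of 286 on 3L and 277 of 298 on 2L. Such counts depend on the density.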
